A study of Mus musculus with 12 samples.

Results

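The change with time in culture was measured in wild-type mouse embryonic stem (ES) cells, by comparing the arrays taken 72 h after passaging with those taken 18 h after passaging. The members were the 4 arrays that the labels give as BAF250b WT #3, 2 at each time, of 12 arrays in the series. The other 8 arrays held BAF250b-/- clones 4 and 7, 2 arrays per clone and time, and served as the comparison. WT #3 is the parental line of the knockout clones, and all lines are labelled as a hybrid of B6,129 and CD1 from 3.5 dpc blastocysts. The labels give no medium, growth factor or treatment, and their age entry is not explained for cultured cells. The BAF250b deletion was carried by clones 4 and 7 and not by WT #3, and each genotype rests on few lines, 1 wild-type and 2 knockout.

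Sample RNA was labelled with Cy3 and hybridised against a Cy5-labelled pool of RNA from 11 mouse cell lines, the same reference on every array, with no dye swap. Values are log2 ratios of sample over this pool, so a difference of 1 between times is a 2-fold change. Levels above or below the reference are these ratios, from which a dye effect was not separated. Both 18 h arrays carry culture letter A, while the 72 h arrays carry letters A and B, so p-values measure the spread between arrays, part of which may be technical. The 4 wild-type arrays were extracted on 1 day per the file headers. Median sample intensity lay between 584.6 and 653 on these arrays, and between 94.6% and 97.2% of probes were brighter than all but the top 5% of negative control spots. The arrays of a time resembled each other closely, with an SD of the difference between them of 0.0932 at 18 h and 0.106 at 72 h over all probes.

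ES cells are derived from the inner cell mass of the blastocyst and renew themselves between passages, when colonies are dissociated and plated again. During this interval the cells reattach, divide and form colonies, and local density rises. BAF250b, the product of Arid1b, is a DNA-binding subunit of the SWI/SNF (BAF) complexes, which move nucleosomes using ATP. The wild-type time course therefore gives the background against which the time course of the BAF250b-/- clones can be read.

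The scanner files give probe identifiers and 60-base probe sequences and pair no probe with a gene. Probes were placed by an exact match of at least 30 bases to RefSeq windows that run from 250 bases before to 50 bases after each gene's start (GRCm38.p6). Of 42004 probes tested, 467 matched a window, 289 of them over all 60 bases, and 253 lay at 1 window position inside the span of a single RefSeq gene of the same strand, which names 249 genes. Matches elsewhere in the genome were not searched. The RefSeq table gives gene spans and no exons, so whether a probe lies in a UTR was not determined.

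The sequences of 6 placed probes called in wild type are shown because they tie the values to genes. Bases 31 to 60 of each probe are written 5′ to 3′, with AATAAA or ATTAAA, the hexamers of the poly(A) signal, in capitals. Coordinates are those of the matched bases in GRCm38.p6.
Sympk, plus strand, chr7:19054553-19054612, all 60 bases, 134 to 75 bases before the start of Rsph6a: aAATAAAagagggcgtagctgcgccaggtt
Zbtb22, plus strand, chr17:33919254-33919313, all 60 bases, 224 to 165 bases before the start of Tapbp: cttaatttttaacggtgATTAAAatattta
Nabp2, minus strand, chr10:128401396-128401455, all 60 bases, 231 to 172 bases before the start of Slc39a5: atccctccttcctAATAAAtgttcccactc
Neurl4, plus strand, chr11:69913770-69913817, 48 bases, 250 to 203 bases before the start of Gps2: tttctaaggagccAATAAAtactgtcttca
Il17rc, plus strand, chr6:113483106-113483138, 33 bases, 250 to 218 bases before the start of Creld1: cactagAATAAAagccgatacagtattcct
Rpl38, plus strand, chr11:114668538-114668597, all 60 bases, from 42 bases before to base 18 of the start of its own window: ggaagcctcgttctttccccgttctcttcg
The first 5 are those of the 11 placed probes called in wild type that hold a poly(A) hexamer. Each lies within its gene just before the start of a neighbouring gene. Only windows around gene starts were searched, so nearness to a start is set by the search. The Rpl38 probe has no such hexamer in these bases and lies at the start of its gene. Its distances, 42 bases before to base 18, are counted from the start of the Rpl38 gene and not from the edge of the window.

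Between 18 and 72 h, 3488 of 42004 probes changed in the wild-type line, which is 8.3% at an adjusted p under 0.05 (limma, Benjamini-Hochberg). Of these, 1675 were higher at 72 h (3.99%) and 1813 were lower (4.32%). The changes were mostly small, with a median absolute log2 difference of 0.289 among called probes. Only 37 called probes moved at least 2-fold, 31 higher and 6 lower, and 257 moved at least 1.5-fold, 166 higher and 91 lower. Among the called probes 1213 differed by under 0.25 and 1864 by 0.25 to 0.5 on the log2 scale. The 2 arrays of one time lay entirely beyond the 2 arrays of the other for 3426 called probes (98.2%), against 51.5% of all probes measured on the 4 arrays. The share of higher probes was 48.0% of the calls and became 65.5% when the sample channel alone was used, with 805 calls, and 39.1% without background correction, with 3515 calls. Leaving out 1 array reduced the count to 1668 without the first 18 h array, 1570 without the second, 1703 without the first 72 h array and 1614 without the second.

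**Figure D1:**
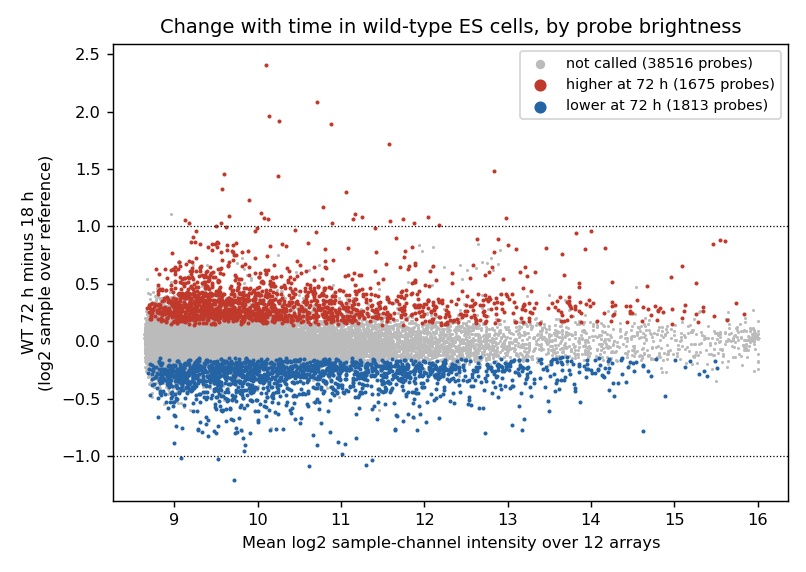
Each point is 1 probe, with its mean log2 sample-channel intensity over 12 arrays on the x axis and its wild-type difference, 72 h minus 18 h in log2 sample over reference, on the y axis. The 1675 red and 1813 blue probes passed an adjusted p of 0.05, dotted lines mark a 2-fold change, and 31 of the 37 called probes beyond them are higher at 72 h.

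Calls came mainly from bright probes. With probes sorted by intensity into 4 groups of equal size, 0.99% were called in the dimmest, which had a median intensity of 438.2. The share was 3.34% in the next group, 8.95% in the third and 19.9% in the brightest, where the median intensity was 1690. In the brightest group lower calls outnumbered higher ones, at 11.2% against 8.7%, while in the third group 4.01% were lower and 4.94% higher. On the wild-type arrays 95% of negative control spots lay under an intensity of 415 to 430.5, close to the median of the dimmest group.

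No probe among the 24 with the largest changes could be placed at a gene, so the leading changes are given by probe identifier. The rule of the analysis names 3 in each direction, and 9 more in each direction were added after their values were seen. All 24 were taken from called probes whose 2 times did not overlap. The strongest rise was at probe Z00034384-1, which read -2.14 and -2.13 at 18 h and 0.28 and 0.28 at 72 h. Its sample intensity went from 545.5 and 538.5 to 1191 and 1229. Its ratio to the reference pool therefore passed from below to above equality, a position from which a dye effect was not separated. The difference was 2.41 (SE 0.072), a 5.31-fold rise, with an adjusted p of 1.03e-06 from limma.

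Probe Z00025587-1 read -0.24 and -0.35 at 18 h and 1.71 and 1.86 at 72 h. The arrays of the 2 times were far apart, with a log2 difference of 2.08 (SE 0.066), a 4.23-fold rise at an adjusted p of 1.14e-06 (limma). Probe Z00034825-1 read -3.02 and -2.95 at 18 h and -1.05 and -1.0 at 72 h, below the reference at both times. It rose 3.89-fold, a log2 difference of 1.96 (SE 0.054, limma adjusted p 1.03e-06).

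Falls were smaller than rises. Probe Z00064108-1 fell from 1.62 on both 18 h arrays to 0.40 and 0.43 at 72 h. Its log2 difference was -1.21 (SE 0.070, limma adjusted p 2.88e-05), a level 2.31-fold higher at 18 h. Probe Z00031126-1 read -0.73 and -0.74 at 18 h and -1.83 and -1.81 at 72 h, a difference of -1.08 (SE 0.034, limma adjusted p 1.14e-06). Probe Z00023748-1 read -1.61 and -1.62 at 18 h and -2.67 and -2.73 at 72 h, also a difference of -1.08 (SE 0.057, limma adjusted p 1.75e-05). The last 2 of these probes were below the reference throughout. All 6 probes kept their direction and their call under all 18 alternatives run on them. Without background correction, however, the difference was 1.38 for Z00034384-1 and 1.35 for Z00034825-1, so the size of these rises rests on that step.

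**Figure D2:**
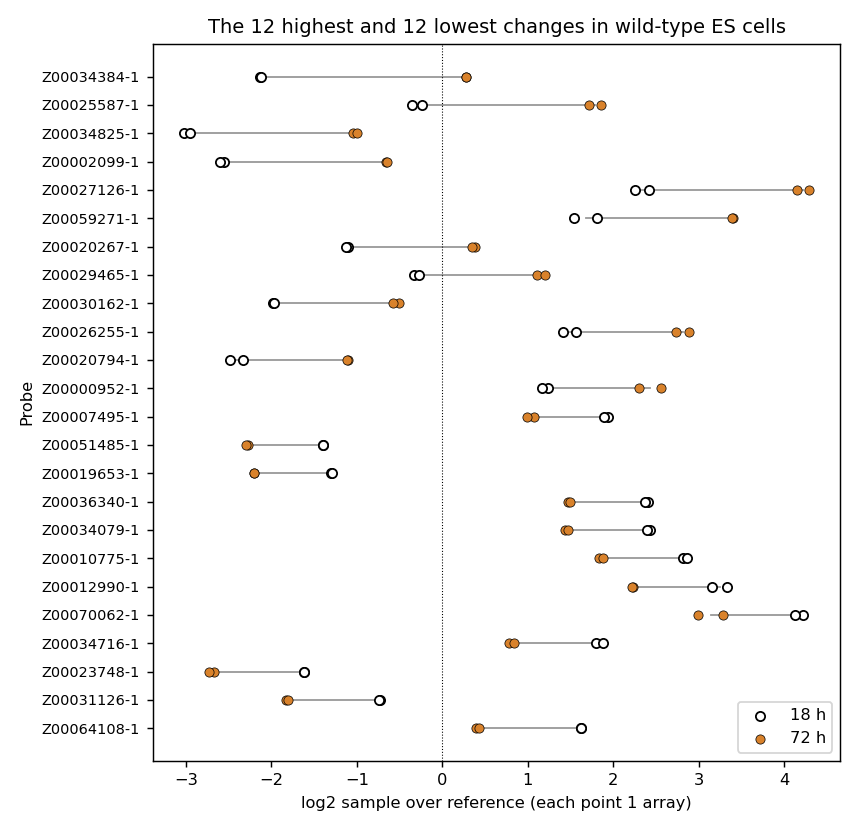
The x axis gives log2 sample over reference, each point is 1 wild-type array (white 18 h, orange 72 h), and grey lines join the means of the 2 times for the 12 highest and 12 lowest changes. The 24 probes were taken from called probes whose 2 times do not overlap. Differences run from 1.23 to 2.41 among the rises and from -1.21 to -0.885 among the falls.

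Of the 12 highest probes, 6 began at least 2-fold below the reference at 18 h, 4 at least 2-fold above it and 2 within 2-fold. Of the 12 lowest, 8 began at least 2-fold above the reference and 3 at least 2-fold below. Among all 3488 called probes, 882 began at least 2-fold above and 357 at least 2-fold below. The levels at both times make up the difference that ranked the 24 probes, so their counts are a description. By 72 h, 6 of the highest and 6 of the lowest were at least 2-fold above the reference. No spot of the 24 was saturated on the wild-type arrays, and the arrays of the lower time were above the negative controls for all 24. The SD within a pair of arrays was at most 0.203. Among all called probes, the ratio passed from below to above equality between 18 and 72 h for 209 and the other way for 227.

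Among the 253 probes placed at a gene, 11 changed in the wild-type line, 5 higher and 6 lower. That is 4.35%, below the 8.3% over all probes, and the median difference of the placed probes was -0.01 against -0.0035 over all probes. These genes were those that could be placed and were not chosen as a group. Non-overlapping times were a condition for the genes shown, and 98.2% of all called probes met it.

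Mllt6, which encodes a chromatin-associated protein found fused to MLL in leukaemia, read 1.26 and 1.29 at 18 h and 0.87 and 0.78 at 72 h. It fell by 0.45 on the log2 scale (SE 0.062, limma adjusted p 0.00273). Sympk, the symplekin scaffold of the machinery that cleaves pre-mRNA at the poly(A) site, read -0.22 and -0.21 at 18 h and -0.49 and -0.51 at 72 h. Sympk fell by 0.28 (SE 0.047, limma adjusted p 0.00634). Zbtb22, a BTB-domain zinc finger protein, read -0.36 on both 18 h arrays and -0.62 and -0.60 at 72 h. It fell by 0.25 on the log2 scale (SE 0.039, limma adjusted p 0.00490).

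Gtf2h4, a subunit of the general transcription factor TFIIH, read 0.53 and 0.65 at 18 h and 0.35 and 0.33 at 72 h. Nabp2, a single-stranded DNA-binding protein of DNA repair, read -0.05 and -0.08 and then -0.33 and -0.30. Neurl4, a protein with neuralized domains found at centrioles, read 0.10 and 0.12 and then -0.07 and -0.16. The log2 falls of these 3 genes were 0.25, 0.25 and 0.23, with limma adjusted p-values of 0.00885, 0.0183 and 0.0156.

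Rpl38, a protein of the large ribosomal subunit, had the largest rise and the widest spread between arrays among the 11 called genes. It read 1.40 and 1.20 at 18 h and 1.65 and 1.92 at 72 h, a difference of 0.49 (SE 0.097, limma adjusted p 0.0152). Rps27l, a paralog of ribosomal protein gene Rps27 and a target of p53, read 2.54 and 2.47 at 18 h and 2.80 and 2.75 at 72 h. It rose by 0.27 (SE 0.060, limma adjusted p 0.0242). Ribosomal protein genes have near-identical copies, so the source of both signals is uncertain.

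Il17rc, a subunit of the interleukin-17 receptor, was below the reference throughout, at -2.02 and -2.08 at 18 h and -1.71 and -1.66 at 72 h. It rose by 0.37 (SE 0.045, limma adjusted p 0.00152). Plet1, a surface protein known from placenta and epithelial progenitors, read 3.28 and 3.27 at 18 h and 3.48 and 3.59 at 72 h, the highest level against the reference among the 11. It rose by 0.27 (SE 0.058, limma adjusted p 0.0232), a call that was lost in 11 of the 18 alternatives. Ndufb11, a subunit of mitochondrial complex I, read 1.10 on both 18 h arrays and 1.27 and 1.32 at 72 h. Its rise was 0.19 (SE 0.041, limma adjusted p 0.0208), and the call was lost in 9 of 18 alternatives. Without background correction the rises of Ndufb11 and Plet1 were 0.08 and 0.16, and with the sample channel alone the differences of Zbtb22 and Nabp2 were -0.10 and -0.10. Calls of the other placed genes were lost in 2 to 8 alternatives, and no direction reversed. With the sample channel alone, Rpl38 was the only gene of the 11 to keep its call (limma adjusted p 0.0153).

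The 22 gene lists chosen for ES cells after passaging, which cover pluripotency, lineage markers, feeder cells, cell cycle, stress and metabolism, hold 509 genes. Of these, 5 had a placed probe and 0 of the 5 were called in the wild-type line. The shares called there were 8.3% of all probes and 4.35% of placed probes. At an unadjusted p under 0.05 (limma) stood 1 of their 6 probes, beside 8009 of all 42004 probes. Prdx1, a peroxiredoxin of the oxidative stress list, read 0.59 and 0.54 at 18 h and 0.81 and 1.04 at 72 h on one probe. The difference of 0.36 had an adjusted p of 0.107 from limma, and 0.0484 when the 4 wild-type arrays were fitted alone. The other Prdx1 probe differed by 0.04 (limma adjusted p 0.856), and the difference between the probes was not tested. Hspd1 and Hspa1a, chaperones of the heat shock list, differed by -0.04 and -0.14, with limma adjusted p-values of 0.834 and 0.337. Actg1, the cytoplasmic gamma-actin, differed by -0.08 (limma adjusted p 0.598), and Acta2, smooth muscle actin on the fibroblast feeder list, by -0.05 (limma adjusted p 0.770). No ES cell marker and no Arid1b probe was among the placed probes, so neither the cell type nor the genotype label was checked here.

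Probe sequences of the called probes were compared with those of all probes, as a description of what was hybridised. AATAAA or ATTAAA stood in 9.73% of all 42004 probes, in 14.0% of those higher at 72 h and in 17.5% of those lower. Among called probes that moved at least 1.5-fold the shares were 18.7% and 23.1%. AATAAA alone stood in 6.75% of all probes, 10.7% of the higher and 13.1% of the lower. Its reverse complement TTTATT, which can overlap ATTAAA, stood in 3.42%, 3.88% and 3.31%. TTTAAT, the reverse complement of ATTAAA, stood in 2.31%, 3.82% and 2.54%. Among probes that moved at least 1.5-fold, TTTATT stood in 7.83% of the 166 higher and 1.1% of the 91 lower ones. Within the 4 groups of brightness, from dimmest to brightest, AATAAA or ATTAAA stood in 9.64%, 7.9%, 8.42% and 13.0% of all probes. The shares were 20.0%, 10.4%, 13.1% and 15.0% of the higher and 14.8%, 13.3%, 13.8% and 19.5% of the lower probes, above that of all probes in every group. The dimmest group holds only 50 higher and 54 lower probes.

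TGTANATA, the motif of Pumilio proteins, stood in 0.933% of all probes, 2.09% of the higher and 1.38% of the lower, and TATNTACA, the same motif on the other strand, in 0.548%, 0.537% and 0.607%. The ATTTA pentamer of AU-rich elements stood in 7.27% of all probes, 8.66% of the higher and 8.44% of the lower. On the other strand, TAAAT stood in 8.19%, 10.4% and 11.7%, and it can overlap AATAAA and ATTAAA at their ends. CG stood in 53.9% of all probes, 50.8% of the higher and 56.4% of the lower. Median GC content was 43.3% over all probes, 41.7% for higher and 43.3% for lower probes. Probes with under 35% GC were called higher in 5.85% and lower in 3.57%, while those of 55% GC or more were called higher in 2.76% and lower in 3.54%. Each match is a run of letters in a probe and not a shown binding site.

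Probes that share sequence served as a check on single probes. There were 764 pairs of probes with at least 30 bases in common, and the wild-type differences of their members had a Pearson r of 0.885 across pairs, which share target and arrays. Both members were called in 58 pairs, always in the same direction. One member alone was called in 27 pairs, and in 26 of these the other member had the same sign.

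The same interval was then compared in the BAF250b-/- clones, which were on separate arrays. There, 15957 of 42002 probes changed (38%), 6963 higher (16.6%) and 8994 lower (21.4%), by limma at an adjusted p under 0.05. The SD of the time change over all probes was 0.144 in the wild-type line, 0.338 in clone 4 and 0.367 in clone 7. The contrast of the clones averages 2 lines and 8 arrays against 4 arrays, so it detects smaller changes, and counts of calls alone do not compare the genotypes. The difference between the time changes was therefore tested itself, and 10036 of 42000 probes (23.9%) passed. Clone 7 was extracted on another day than the wild-type line and clone 4, and the 2 clone 7 arrays at 72 h differed by an SD of 0.254. With clone 4 as the sole knockout line, 9241 probes passed the test of the difference.

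Of the 3488 probes called in wild type, 2523 (72.3%) also changed in the same direction in the clones. Another 476 (13.6%) moved the opposite way and 489 were not called in them. The change differed between genotypes for 2338 (67%). This share cannot be read against the 23.9% of all probes, since the probes were chosen on the same 4 wild-type arrays that enter the difference. For 1420 of these the knockout change had the same sign and was larger, for 219 it had the same sign and was smaller, and for 699 it had the opposite sign. For the remaining 1150 no difference was shown. Probes that fell in wild type went the same way in the clones in 78.8% of cases and those that rose in 65.4%, a contrast that was not tested. Over all probes, too, more were called lower in the clones (21.4%) than higher (16.6%). The median wild-type change of the falling probes was -0.279 and their median knockout change -0.44, while for the rising probes these were 0.301 and 0.351.

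**Figure D3:**
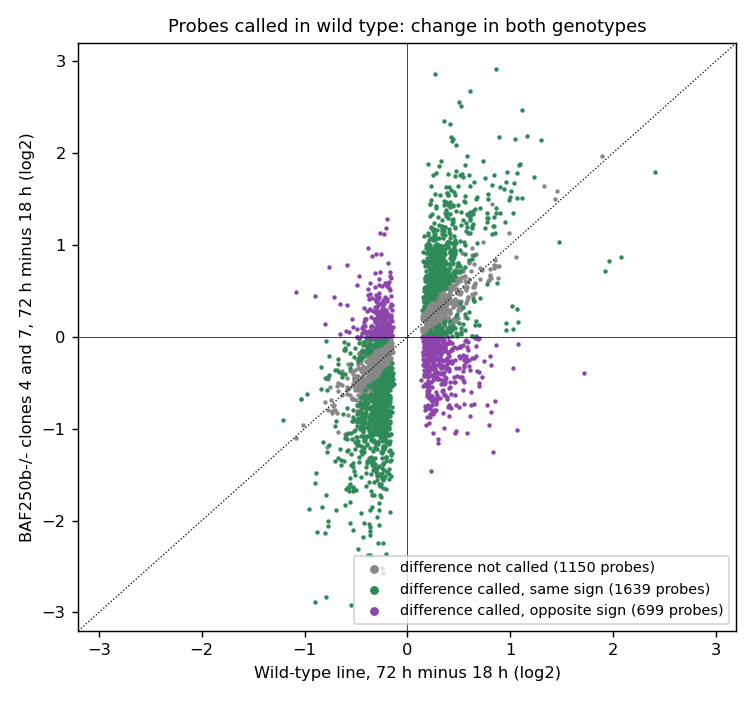
Each point is 1 of the 3488 probes called in wild type, with the log2 change from 18 to 72 h in the wild-type line on the x axis and in BAF250b-/- clones 4 and 7 on the y axis. Grey points (1150) had no called difference between genotypes, green points (1639) differed with the same sign and purple points (699) differed with the opposite sign. The dotted line marks equal change.

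Among the 31 probes that rose at least 2-fold in wild type, 25 also rose in both clones and 1 was called lower in the clones. The difference between genotypes was called for 26 of the 31, with the larger rise in the clones for 13 and the smaller for 9. Of the 6 that fell at least 2-fold, 5 fell in both clones and 3 differed between genotypes.

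The leading probes fell on both sides of this comparison. Z00034384-1 rose by 1.78 in clone 4 and 1.82 in clone 7, and the knockout change minus the wild-type change was -0.61 (limma adjusted p 0.000747). Z00025587-1 and Z00034825-1 rose by 0.87 and 0.82 in the clones, 1.21 and 1.14 less than in wild type on the log2 scale. Z00023748-1 changed by -1.10 in the clones and -1.08 in wild type, with no difference called (limma adjusted p 0.926). Z00031126-1 went the other way in both clones, 0.56 in clone 4 and 0.40 in clone 7 against -1.08 in wild type (limma adjusted p 2.55e-07 for the difference).

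Further probes of opposite or unequal change are named after their values were seen, from among the largest of each kind. Z00036262-1 read 2.96 and 3.02 at 18 h and 3.99 and 4.12 at 72 h in wild type, and its change of 1.07 there stood against -1.19 in clone 4 and -0.83 in clone 7. Z00059271-1 had the widest contrast among the leading rises, at 1.72 in wild type and -0.40 in the mean of the clones, which was not called (limma adjusted p 0.0522). Its change was -0.62 in clone 4 and -0.17 in clone 7, with limma adjusted p-values of 0.0438 and 0.57. Z00004931-1 rose by 1.08 in wild type, where its intensity went from 5363 and 5126 to 10892 and 10081. In the clones it changed by -0.43 in clone 4 and 0.26 in clone 7, so the 2 clones had opposite signs. Z00055046-1 rose by 0.96 in wild type and by 0.01 and 0.13 in clones 4 and 7. Z00022389-1 fell by 0.79 in wild type and changed by -0.11 and 0.01. Larger in the clones were Z00000892-1, at 0.86 in wild type and 2.91 in the clones, and Z00067144-1, at -0.79 and -2.84.

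Among the placed genes called in wild type, the change differed between genotypes for 8 of the 11 (72.7%), near the 67% of all probes called in wild type. Falls were deeper in the clones for Mllt6 (-1.19), Zbtb22 (-1.25), Gtf2h4 (-0.59) and Neurl4 (-0.90), with limma adjusted p-values of the difference from 1.72e-06 to 0.0014. The rise of Ndufb11 was larger in the clones, at 0.80. Sympk, lower at 72 h in wild type, was higher in the clones by 0.13, and Plet1, higher in wild type, was lower in the clones by 0.34. Il17rc changed by 0.06 in the clones, where it was not called (limma adjusted p 0.223). No difference was shown for Nabp2, Rps27l or Rpl38, whose differences between genotypes were -0.06 (SE 0.063), 0.12 (SE 0.073) and -0.10 (SE 0.119).

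**Figure D4:**
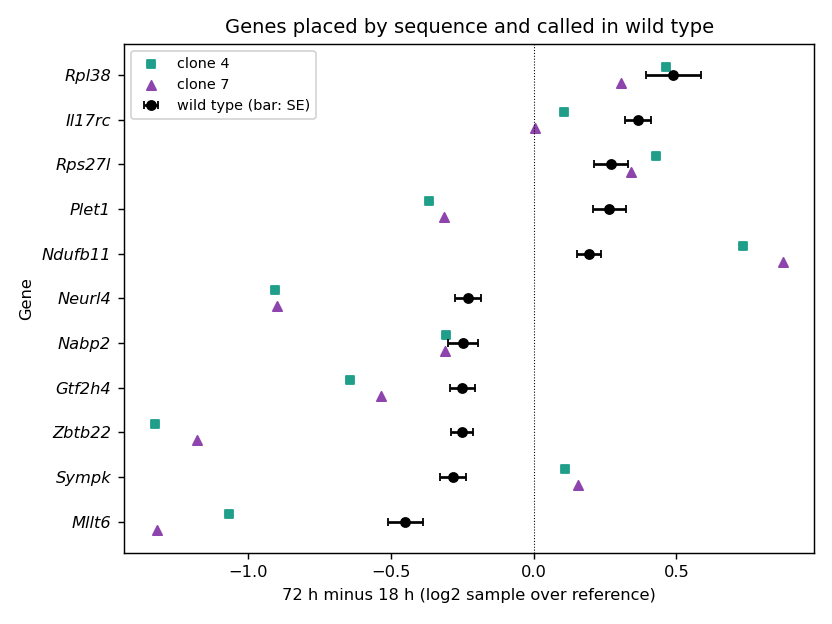
The x axis gives the log2 difference, 72 h minus 18 h, for the 11 placed genes called in wild type. Black points with bars are the wild-type line with the SE of the fit, squares are clone 4 and triangles clone 7. Mllt6, Zbtb22 and Neurl4 lie further left in both clones, Ndufb11 lies further right, and Sympk and Plet1 lie on the other side of 0.

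Conversely, 22 placed probes changed in the clones and differed between genotypes without a call in wild type, 11 in each direction. That is 8.7% of the placed probes, against 17.6% of all probes, and 4 are named after their values were seen. Zmynd10, needed for the assembly of dynein arms of motile cilia, differed by 0.16 in wild type (limma adjusted p 0.253) and rose by 1.77 in clone 4 and 2.02 in clone 7. Lamb2, a laminin beta chain of basement membranes, differed by -0.18 in wild type (limma adjusted p 0.154) and rose by 0.30 in the clones. Dclre1b, a nuclease that protects telomeres, differed by -0.03 in wild type (limma adjusted p 0.847) and fell by 0.94 in the clones. Ndufa9, a complex I subunit like Ndufb11, differed by 0.02 in wild type and rose by 0.42 in the clones.

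Levels against the reference pool were then used to sort probes, with the classes taken from the clone arrays at 18 h so that the wild-type values played no part. Among the 3537 probes that lay 2- to 8-fold above the reference there, 10.5% were higher at 72 h in wild type and 14% were lower, with a median difference of -0.012. In the clones 19.1% of the same probes were higher and 61.4% lower, with a median of -0.32, but the classes share their 18 h arrays with this contrast. Among the 298 probes over 8-fold above, 9.73% were higher and 8.39% lower in wild type. Among the 1873 probes 2- to 8-fold below, 10% were higher and 7.05% lower, and within 2-fold of the reference, which holds 35810 probes, 2.97% and 3.18% were. In wild type, neither direction was the more frequent one in all classes, and calls were more frequent away from the reference level than within 2-fold of it. The classes were not separated by brightness, with which the share of calls also rose.

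**Figure D5:**
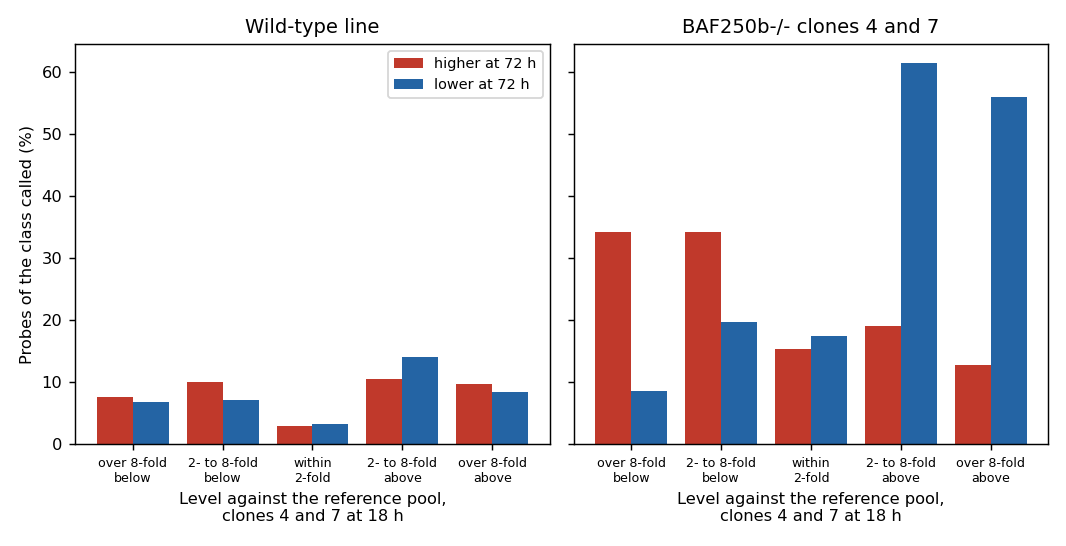
Bars give the percent of probes called higher (red) or lower (blue) at 72 h in each class of level against the reference pool, in the wild-type line (left) and the clones (right). Classes were taken from clones 4 and 7 at 18 h, so the right panel shares arrays with the classes and is a description. In the class 2- to 8-fold above, the wild-type bars are 10.5% and 14%, and the clone bars 19.1% and 61.4%.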

How the data were processed

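Total RNA of 12 ES cell samples was measured on 2-colour Agilent arrays with 42034 non-control spots for 42006 probes. Per the file headers, the authors scanned and extracted them with Agilent Feature Extraction, and the deposited files hold intensity per channel and a log10 ratio. The deposited series table holds log10 values, and the sources used here do not give how they were corrected by the reference. Its columns had medians from 2.987 to 3.002 and followed the sample channel (r 0.9 to 0.944 over 25674 probes).

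From the mean intensities, normexp (offset 50) and loess within arrays were computed with limma 3.58.1 in R 4.3.3, with weight 0 for control and outlier-flagged spots in loess, and the sign was turned to sample over reference. A model with 1 mean per line and time was fitted to all 12 arrays, with 6 residual and 2.98 prior degrees of freedom, and p-values were adjusted by Benjamini-Hochberg over all probes at 0.05. The scripts were tested on simulated data. The number of arrays limits the precision.

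Probes named are the 12 highest and 12 lowest placed at 1 gene (11 existed), the 3 highest and 3 lowest without a gene, and called list members. Probes ranked as highest or lowest had to be called, with non-overlapping times and signal above the negative controls at the higher time. The comparison, lists and rules were chosen with earlier results of these data known. Replicate numbers did not pair the arrays, since deviations of same-numbered arrays had a correlation of 0.007 in wild type, -0.046 in clone 4 and 0.0052 in clone 7. Alternatives covered background, normalization, channel, filters, samples and thresholds. The 12 other pluripotent lines that the design mentions were not analysed here.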

Additional observations from a re-analysis of the deposited data

Results flagged for a closer look

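By limma's test of the difference, the time change differed between the BAF250b-/- clones and the wild-type line for 10036 of 42000 probes (23.9%). It differed for 13 of the probes given by the naming rule, which were 6 leading probes and 11 placed genes. Among all probes called in wild type, 67% differed. The rule chose probes on the 4 wild-type arrays that enter the difference, so these values are not independent of the choice. The values given here are the knockout change minus the wild-type change on the log2 scale. Among the leading probes it was -0.61 for Z00034384-1, -1.21 for Z00025587-1 and -1.14 for Z00034825-1, which rose less in the clones. It was 0.31 for Z00064108-1, which fell less in the clones, and 1.57 for Z00031126-1, which went the opposite way. Among placed genes it was -1.0 for Zbtb22, -0.74 for Mllt6, -0.67 for Neurl4 and -0.34 for Gtf2h4, all falling further in the clones. It was 0.61 for Ndufb11, which rose further. It was 0.42 for Sympk and -0.61 for Plet1, whose signs differ between genotypes, and -0.31 for Il17rc, which was not called in the clones.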

How the results depend on the processing

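The count of 3488 wild-type calls became 2054 with median centring in place of loess, 805 with the sample channel alone, 1604 at an adjusted p under 0.01 and 257 with a 1.5-fold minimum. Leaving out 1 array gave 1570 to 1703. The other 10 alternatives stayed within 1.5 times. Of the 805 calls 690, and of the 2054 calls 1997, were called in the same direction in the main setting, and 0 in the opposite one. Of the 3488 main calls, however, only 19.8% were kept with the sample channel alone and 57.3% with median centring. For the knockout clones, 3809 of 15957 calls passed the 1.5-fold minimum. The difference between genotypes gave 5178 calls with the sample channel alone and 3100 with the minimum. With the replicate block the counts were 3245, 15840 and 9949, and the numbers do not pair the arrays. The count of gene list members called went from 0 to 1 with the wild-type arrays alone. Alternatives were run on the probes given by the naming rule and not on those named after their values were seen. None of the former reversed, and 63 of 305 values lost their call. The causes were not tested. Signal limits the dimmest of the 4 brightness groups, and 2 arrays per time limit all differences.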
